A study of Homo sapiens with 8 samples.

Results

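The enhancers described here are the H3K27ac regions of the Group 3 medulloblastoma (G3-MB) line MB002 that were shared with the G3-MB lines D425 and HDMB03 and absent from UW228. They were selected by overlap. An MB002 region on chromosomes 1 to 22 was a member when at least 1 bp of it was covered by a region of D425 and by a region of HDMB03, and no region of UW228 overlapped it. The rule selected 3965 of the 25179 MB002 regions on these chromosomes, or 15.7%. The presence calls of the 4 lines chose the members, so the pattern of presence, and the strength of the signal that a call needs, are described with no test.

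H3K27ac ChIP-seq was run with 1 immunoprecipitated library and 1 input library in each of 4 human medulloblastoma cell lines. MB002, D425 and HDMB03 are labelled as Group 3 lines, and UW228 as a line of the sonic hedgehog (SHH) subtype. MB002 and HDMB03 were grown in tumor stem medium, whereas D425 and UW228 were grown in DMEM with fetal bovine serum. The only non-G3 line is therefore a single line, and it shares its medium with D425. Without replicates no spread can be given, and an exact permutation test of 3 lines against 1 cannot go below a two-sided p of 0.25. Nothing was tested between lines.

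H3K27ac is a histone mark laid down at active enhancers and promoters. Stretches of clustered, strongly marked enhancers are called super-enhancers (SEs), and they often lie at genes of transcription factors that set the identity of a cell. G3-MB is an aggressive cerebellar tumor of childhood known for high MYC and for photoreceptor and early neuronal programs, in which OTX2 and CRX are well-known regulators, whereas SHH tumors arise from granule neuron precursors that depend on Hedgehog signaling.

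Sequence from the centre of a few members is shown as an example, and it does not stand for the members as a set. The first set shows 2 of the 5 members with the lowest mean rank percentile among eligible members that were a single peak in all 3 G3-MB lines and had no exon in the window shown. Each line gives the 300 bp at the centre of the part shared by the 3 lines, from the plus strand of GRCh38. Capitals mark the letters TAATCC (bound by OTX2 and CRX), CAGATG (bound by proneural factors such as NEUROD1) and TGANTCA (bound by AP-1), on either strand. The SNHG19 window, at chr16:2150435-2150734, lies in an intron of RAB26, 4.77 kb from the start of SNHG19, a host gene of small nucleolar RNAs. The GFRA1 window, at chr10:116132792-116133091, lies in an intron of this GDNF receptor gene, 142 kb from its start.
SNHG19: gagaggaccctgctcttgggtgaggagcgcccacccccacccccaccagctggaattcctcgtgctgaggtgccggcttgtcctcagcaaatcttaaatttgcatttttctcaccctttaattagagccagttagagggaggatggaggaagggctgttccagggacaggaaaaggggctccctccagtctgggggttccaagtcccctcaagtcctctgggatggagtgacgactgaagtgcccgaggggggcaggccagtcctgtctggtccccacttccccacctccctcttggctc
GFRA1: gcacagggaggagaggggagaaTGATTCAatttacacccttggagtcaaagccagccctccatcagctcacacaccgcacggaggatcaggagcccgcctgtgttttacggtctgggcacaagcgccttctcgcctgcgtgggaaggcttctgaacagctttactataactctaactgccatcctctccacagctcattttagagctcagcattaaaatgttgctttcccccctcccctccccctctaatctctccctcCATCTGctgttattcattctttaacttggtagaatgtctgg

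Signal per base pair is given after subtraction of input, in reads per base pair scaled to the mapped reads of the library (rpm/bp), and for a named member it is that of the best-ranked region of each line. It was 2.41 in MB002, 1.40 in D425 and 3.86 in HDMB03 at SNHG19. At GFRA1 it was 2.41 in MB002, 2.06 in D425 and 3.51 in HDMB03. The GFRA1 window holds 1 proneural match and 1 AP-1 match, and the SNHG19 window holds none of the 3 motifs.

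A further pair of single-peak members belonged to genes of the developmental lists below. The ID4 window, at chr6:19996161-19996460, lies between genes, 159 kb from the start of ID4, an inhibitor of proneural factors. The LHX2 window, at chr9:124041235-124041534, lies between genes, 29.6 kb from the start of LHX2, a transcription factor of the eye field. The capitals have the same meaning.
ID4: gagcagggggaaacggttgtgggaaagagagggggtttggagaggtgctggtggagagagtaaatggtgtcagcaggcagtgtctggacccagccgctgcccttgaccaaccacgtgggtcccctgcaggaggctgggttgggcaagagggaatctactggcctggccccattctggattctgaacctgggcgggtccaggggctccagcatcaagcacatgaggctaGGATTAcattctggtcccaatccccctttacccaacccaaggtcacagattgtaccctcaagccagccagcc
LHX2: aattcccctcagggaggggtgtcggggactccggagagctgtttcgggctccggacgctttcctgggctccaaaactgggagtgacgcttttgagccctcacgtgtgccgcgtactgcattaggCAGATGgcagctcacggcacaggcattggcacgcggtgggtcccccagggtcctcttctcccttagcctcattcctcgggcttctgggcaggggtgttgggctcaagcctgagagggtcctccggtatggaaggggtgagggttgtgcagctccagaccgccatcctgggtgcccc

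The last set was chosen after the values were seen, to show the core of the members at the photoreceptor regulators on which the results turn. The OTX2 window, at chr14:56808667-56808966, lies in an intron of OTX2. The CRX window, at chr19:47838408-47838707, lies in an intron of CRX and is made of a short repeat. The NRL window, at chr14:24083639-24083938, lies in an intron of NRL. All are read from the plus strand of GRCh38.
OTX2: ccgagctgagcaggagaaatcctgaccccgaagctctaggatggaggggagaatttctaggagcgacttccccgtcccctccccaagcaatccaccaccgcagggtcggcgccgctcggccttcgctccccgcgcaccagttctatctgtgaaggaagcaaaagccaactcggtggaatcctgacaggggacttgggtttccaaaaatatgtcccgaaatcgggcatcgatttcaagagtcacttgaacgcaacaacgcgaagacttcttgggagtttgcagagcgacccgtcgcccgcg
CRX: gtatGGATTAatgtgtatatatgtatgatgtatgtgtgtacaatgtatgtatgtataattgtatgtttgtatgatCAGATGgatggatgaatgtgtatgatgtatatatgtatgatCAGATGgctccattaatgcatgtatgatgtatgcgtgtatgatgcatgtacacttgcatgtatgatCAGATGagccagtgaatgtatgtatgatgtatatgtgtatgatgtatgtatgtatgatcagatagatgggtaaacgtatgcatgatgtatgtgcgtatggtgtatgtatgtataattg
NRL: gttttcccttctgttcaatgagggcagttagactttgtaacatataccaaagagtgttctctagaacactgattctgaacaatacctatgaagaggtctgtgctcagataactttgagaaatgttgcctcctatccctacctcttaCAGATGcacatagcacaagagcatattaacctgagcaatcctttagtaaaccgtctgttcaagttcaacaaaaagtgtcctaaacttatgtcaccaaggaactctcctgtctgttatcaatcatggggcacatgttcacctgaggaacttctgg

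None of the 3 motifs was found in the OTX2 window, 3 proneural matches and 1 TAATCC match lay in the CRX window, and 1 proneural match lay in the NRL window. No match says only that these letters are not in this window.

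PSMB5, which encodes a catalytic subunit of the proteasome, had 1 member, which was also assigned to AJUBA, and this is the locus where the authors' pooled guides for CRISPR interference could be placed. The member spanned chr14:23021150-23029032 (7.88 kb, 4 peaks) and covered the downstream end of PSMB5, a gene on the minus strand at 23025851 to 23035220, without its transcription start site (TSS). It ranked 4894 in MB002, 3896 in D425 and 6019 in HDMB03. Its signal per base pair was 0.544, 0.722 and 0.318 in the same order, and it was not called an SE in any of the 3 lines. The nearest UW228 region was 11 kb away. By the assignment of regions to genes described below, PSMB5 had 2 regions in MB002 and 2 in UW228. The SE calls of the study also drew on other G3-MB lines, which are not used here. The 5 guides are printed with the PAM that follows each of them in the genome in capitals, and each matched chromosome 14 at 1 place. Guide 1 lies at chr14:23021483-23021502 on the minus strand, guide 2 at chr14:23022222-23022241 on the plus strand, guide 3 at chr14:23023339-23023358 on the plus strand, guide 4 at chr14:23024159-23024178 on the plus strand and guide 5 at chr14:23025558-23025577 on the minus strand (GRCh38).
guide 1: atgtctacaccacttatgcgAGG
guide 2: aagcttggcacctaactcagAGG
guide 3: tagtcccatcacctaccccgAGG
guide 4: ggctaacaaagggtgctgcgGGG
guide 5: cggaaaaggctgtcaccctgTGG

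Guides 3 and 4 lie in an exon of a GENCODE transcript that has no curated RefSeq record, and the other guides lie in no exon. The targets spread over the MB002 region, while the HDMB03 region began nearer to the gene, at 23024675, and held only the target of guide 5. That target was thus the only one inside the part shared by the 3 G3-MB lines.

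In number and in length, members stood between enhancers seen in MB002 alone and enhancers of all 4 lines. Of the 25179 MB002 regions, 10041 (39.9%) overlapped no region of another line, 3984 overlapped D425 only, 2051 overlapped HDMB03 only, and 2451 (9.73%) overlapped all of the other lines. MB002 regions overlapped D425 in 45.3% of cases, HDMB03 in 35.7% and UW228 in 20.4%. For MB002 SEs these shares were 96.0%, 94.6% and 63.2%. Wide regions have more room to be touched by another, and the median length was 588 bp for regions in MB002 alone, 4672 bp for members and 11621 bp for regions of 4 lines.

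Length entered the rule through the chance of an overlap, so the shares were also taken within 4 length classes of nearly equal size. Members made up 4.27% of the shortest class (209 to 445 bp), 12.1% of the next, 21.1% of the following one and 25.5% of the longest (7457 to 173291 bp). Among regions that D425 and HDMB03 both shared, the share absent from UW228 was 74.7% in the shortest class and 51.6% in the longest. By chromosome, members made up 31.3% of MB002 regions on chromosome 19 and 27.6% on chromosome 22, the highest shares, and 11.8% on chromosome 6, the lowest. Regions of 4 lines were also most frequent on chromosomes 19 and 22, at 21.1% and 16.6%.

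The overlap behind the calls was broad in most members but slight in some. D425 regions covered a median of 64.0% of the member and HDMB03 regions a median of 59.4%. At least 50% of the member was covered by D425 in 2281 members and by HDMB03 in 2177. The smallest overlap was 1 bp for D425 and 12 bp for HDMB03. In 192 members the D425 and HDMB03 regions did not meet inside the MB002 region, so that no base was shared by all 3 lines.

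The absence from UW228 ranged from a touching neighbour to a wide desert. The median gap to the nearest UW228 region was 40968 bp, with 116 members within 1 kb and 734 (18.5%) within 10 kb. A gap of over 100 kb was found for 1085 members (27.4%), and 69 lay over 1 Mb away. The members closest to the threshold were those near GJA10 on chromosome 6 (gap 0 bp, the regions adjoining each other), LINC01489 on chromosome 12 (8 bp) and BMPR1A on chromosome 10 (23 bp). Just outside it lay regions that UW228 overlapped by 5 bp near ENTREP3 on chromosome 1, 12 bp near RALGAPA2 on chromosome 20 and 21 bp near SOX6 on chromosome 11.

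The lines were also checked against marker genes of G3-MB and of mesenchymal-like signal. OTX2, CRX, NRL and LMX1A had regions in all 3 G3-MB lines and none in UW228. NEUROD1 had its best region at rank 253 in MB002, 502 in D425 and 48 in HDMB03, and at rank 15080 in UW228. MYC went another way: its best region ranked 14 in MB002, 7 in D425, 3111 in HDMB03 and 763 in UW228, and no member was assigned to it by the rule used here. EOMES and GFI1 had no region in HDMB03 but did have one in UW228, at ranks 5509 and 2445. Of the mesenchymal markers, COL1A2, PRRX1, CD44, CCN1 and VIM ranked 75, 202, 248, 370 and 401 in UW228. In MB002 the same genes ranked 2018, 411, 11046, 5977 and 25190. The other 3 markers, COL1A1, TWIST1 and CCN2, ranked 1801, 3448 and 4928 in UW228, and COL1A1 stood higher in MB002 (474) and HDMB03 (1165), as CCN2 did in D425 (2116). What part the mesenchymal-like signal of UW228 had in the set of absent regions was not tested.

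Members were on the strong side of each ranking. The rank percentile, 100 times the rank over the number of regions of the line, is low for strong regions. Its median over members was 25.6 in MB002, 28.0 in D425 and 36.4 in HDMB03, beside 55.4, 54.2 and 54.7 for the other regions of these lines. The interquartile range was 12.4 to 44.2 in MB002, 12.3 to 50.3 in D425 and 16.6 to 61.1 in HDMB03. Members thus ranked lower in HDMB03, the line with the fewest regions (15286, against 26072 in MB002 and 26317 in D425).

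Ranks rest on the signal summed over the region, so they rise with width. The signal per base pair of members had a median of 0.673 rpm/bp in MB002, 0.663 in D425 and 0.557 in HDMB03. Relative to the median of all regions of the line, these values were 1.26, 1.29 and 1.10. With regions ranked by signal per base pair, the median percentile of members was 33.0 in MB002, 31.3 in D425 and 41.4 in HDMB03. The input under members was near the typical level in MB002 and HDMB03, with a median relative input density of 1.04 and 1.02, and above it in D425, at 1.27.

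**Figure D1:**
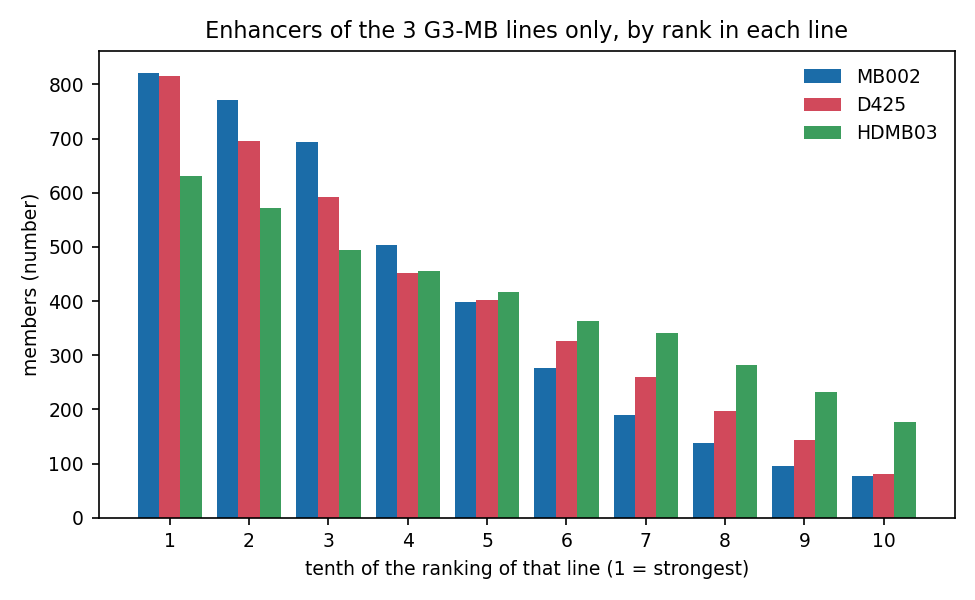
Number of the 3965 members in each of 10 equal classes of the ranking of MB002 (blue), D425 (red) and HDMB03 (green), from the strongest class (1) to the weakest (10). The strongest class holds 821, 816 and 631 members.

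The plot of members by rank class shows a decline from the strongest to the weakest class in every line, and a flatter one in HDMB03. In MB002, 777 members lay in the weaker 50% of all regions, and in D425 and HDMB03 1007 and 1397 did. Seen from the ranking, members made up 32.5% of the strongest MB002 class and 3.04% of the weakest, and regions of 4 lines made up 38.3% and 1.22%. Regions of 4 lines therefore took more of the strongest class than members did, although members were more numerous in total. Their median signal per base pair in MB002 was lower, at 0.639 rpm/bp against 0.673 in members. Their median length was 11621 bp, against 4672 bp.

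A member strong in one line was often middling in another. Only 142 members stood in the strongest class of all 3 lines, 459 did so in a pair of lines and 924 in a single line. The gap between the best and the worst percentile of a member had a median of 32.2 points and was over 50 points in 1064 members. Across the 3965 members, Spearman's correlation of the ranks was 0.355 between MB002 and D425, 0.262 between MB002 and HDMB03 and 0.293 between D425 and HDMB03. These values describe regions of single libraries that were all called in each line, and the part that the shared width of the regions has in them was not tested.

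SEs were more frequent among members than among all regions of a line, as follows from their ranks. An SE overlapped 113 members in MB002 (2.85%), 180 in D425 (4.54%) and 156 in HDMB03 (3.93%). The share of SEs among all regions was 1.39% in MB002, 1.64% in D425 and 1.98% in HDMB03. Regions of all 4 lines were more often SEs of MB002 than members were, with 212 of 2451 (8.65%). Counted as regions of the line instead of members touched, SEs were 147 of 4150 regions in D425 (3.54%) and 122 of 4075 in HDMB03 (2.99%). Since strong regions are called more readily, nothing is read from this difference. An SE was present in no line for 3584 members, in 1 line for 325, in a pair of lines for 44 and in all 3 lines for 12.

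OTX2, the homeobox factor of forebrain and retina, had the strongest member. It spanned chr14:56794260-56817467 (23.2 kb, over the TSS), ranked 3 in MB002, 3 in D425 and 5 in HDMB03, and lay 451 kb from the nearest UW228 region. Its signal per base pair was 28.1 in MB002, 53.7 in D425 and 6.13 in HDMB03. The regions differed in shape, being 23.2 kb wide in MB002, 28.7 kb in HDMB03 and a single peak of 4.72 kb in D425. The relative input density was 35.2 in MB002, 53.3 in D425 and 5.84 in HDMB03. The input was thus raised at this locus in all 3 lines, and its part in the ranks was not tested.

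Close behind were the members of CCAT2 and CASC11, long noncoding RNAs in the gene desert around MYC on chromosome 8. The CCAT2 member ranked 12 in MB002, 2 in D425 and 1 in HDMB03, and the CASC11 member, next after that of ANP32A, ranked 6, 33 and 141. Both stood on raised input, with a relative input density of 41.1, 100.2 and 133.8 at CCAT2 and of 36.2, 45.4 and 30.6 at CASC11. MYC itself was the closest protein-coding gene of the CASC11 member. The UW228 regions nearest to them were 13.3 kb and 90.7 kb away.

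Raised input was otherwise rare among members. A relative input density of 5 or more was reached by 0.184% of all MB002 regions, 0.0684% of D425 regions and 0.373% of HDMB03 regions. It was reached by 11 members in MB002, 7 in D425 and 15 in HDMB03, which together were 19 members. Of these, 9 lay on chromosome 14, 7 on chromosome 8 and 3 on chromosome 2. Apart from OTX2, CCAT2 and CASC11, each of the 15 strongest members had a relative input density below 2 in every G3-MB line.

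Without raised input, the strongest member was that of ANP32A, which encodes an acidic nuclear phosphoprotein that inhibits histone acetylation. It ranked 117 in MB002, 50 in D425 and 7 in HDMB03. In HDMB03 the region around it spread over 148 kb, against 39.7 kb in MB002 and 39.9 kb in D425. The LINC02827 member, in the neighbourhood of TSPAN9, ranked 54, 141 and 52. The member over the TSS of MIR124-1HG, host gene of the neuronal microRNA miR-124, ranked 38, 154 and 68. Its best region in HDMB03 was a single peak of 8.90 kb with a signal per base pair of 4.86, against 1.30 in MB002 and 1.49 in D425. Over all regions that overlap this member the value was 3.64 in HDMB03 and 1.62 in D425.

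The remaining SE members of all 3 lines stood at rank 337 or better in each of them. TBC1D24, a gene of synaptic vesicle trafficking, had a member that ranked 159 in MB002, 93 in D425 and 50 in HDMB03. CASZ1, a zinc-finger factor of neural and retinal progenitors, had one that ranked 70, 264 and 16. The PRKCE member, inside an intron of this protein kinase C gene, ranked 81, 291 and 34, and lay only 2.67 kb from a UW228 region. BRD2 encodes a bromodomain protein that reads acetylated histones, and its member ranked 261, 168 and 89, with a UW228 region 0.873 kb away. LINC03068 (337, 301 and 97) and VAT1L (256, 221 and 270) complete the 12. The PRKCE and BRD2 members show that a gene can have an SE in the 3 G3-MB lines only by this rule and still have H3K27ac in UW228 close by.

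Of the 15 strongest members, 4 were SEs in MB002 and in a second line only. The ASIC4 member ranked 22 in MB002, 501 in D425 and 119 in HDMB03, and the KIF21B member, at a kinesin gene of neurons, ranked 42, 651 and 26. The member that covers CERKL, a retinal gene, and NEUROD1, the proneural factor, ranked 253, 502 and 48. Its ranks come from different stretches, since the best D425 region and the best HDMB03 region did not touch. The signal per base pair of that HDMB03 region was 4.68, and over all HDMB03 regions that overlap this member it was 1.62. These members missed the SE call in D425. The NINL member, at a gene of the centrosome, ranked 108, 32 and 417 and missed it in HDMB03.

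**Figure D2:**
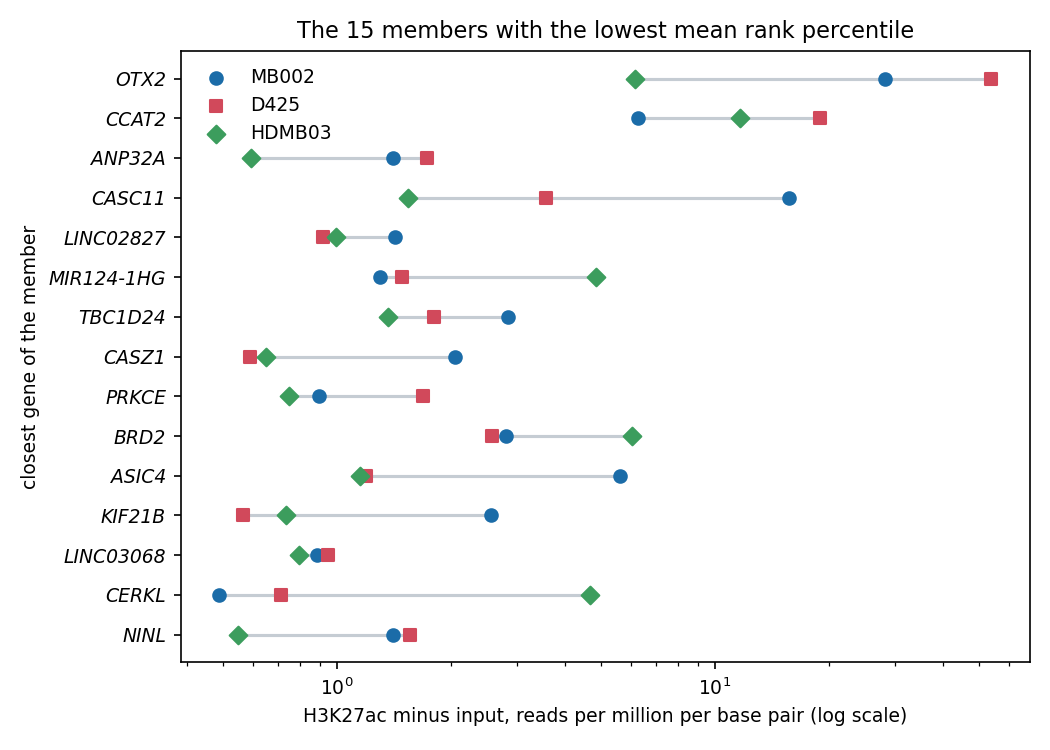
Signal per base pair (H3K27ac minus input, log scale) of the best-ranked region at the 15 members with the lowest mean rank percentile in MB002 (blue circles), D425 (red squares) and HDMB03 (green diamonds), named by the closest gene. OTX2 and CCAT2 stand at 6 or more in each line, and the lines differ in order from member to member.

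The plot of signal per base pair shows no fixed order of the lines among the strongest members. D425 was highest at OTX2, MB002 at CASC11, ASIC4 and KIF21B, and HDMB03 at MIR124-1HG, BRD2 and CERKL. Over the 3952 members with signal above 0 in all 3 lines, and after division by the median of each line and with the signal of all overlapping regions summed, MB002 was the highest in 1391, D425 in 1446 and HDMB03 in 1115. The highest line exceeded the lowest by a median of 2.63 times, and 1247 members (31.6%) stayed within 2-fold.

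Members with 1 line at least 4-fold above the mean of the other two numbered 91 for MB002 (2.30%), 102 for D425 (2.58%) and 120 for HDMB03 (3.04%). Over all 6399 MB002 regions shared with D425 and HDMB03 these shares were 2.25%, 2.52% and 3.44%, so members were close to that background. The largest excess in MB002 was at PLB1, with a signal per base pair of 1.82 in MB002, 0.0447 in D425 and 0.0140 in HDMB03, a log2 ratio of 5.90. The next, SLC35F4 (log2 ratio 4.87) and CCDC198 (4.38), were on chromosome 14 like OTX2. SLC35F4 held the first rank of MB002, with a relative input density of 46.4, and ranked 3796 in D425 and 8173 in HDMB03. CCDC198 held rank 11, with an input density of 50.5, and ranked 8998 and 3942. Both reached a relative input density of 5 in MB002 alone. In HDMB03 it was 3.76 at SLC35F4 and 4.61 at CCDC198, and in D425 it was 1.48 and 2.08. The part of input in the excess was not tested.

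In D425 the largest excess was at CSNK2A1, a casein kinase gene, with 0.866 in D425, 0.00160 in MB002 and 0.0301 in HDMB03 (log2 ratio 5.76). At HS3ST5 the log2 ratio was 3.62. In HDMB03 the largest were at COL1A2, a collagen gene (2.12, against 0.121 in MB002 and 0.188 in D425; log2 ratio 3.82), and ZNF124 (3.80). In 4 of these 7 members the line in excess had the narrowest region of the 3 lines, the exceptions being SLC35F4, CCDC198 and CSNK2A1. What part width had in the excess was not tested.

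Members held a promoter more often than MB002 regions in general. A TSS of a curated gene lay inside 353 members (8.90%), against 5.96% of all MB002 regions, 1.75% of those in MB002 alone and 20.8% of those of 4 lines. Width again goes with these shares. Another 30.0% of members touched an exon, 28.0% lay within introns and 33.1% between genes, against 20.8%, 36.1% and 37.1% of all MB002 regions. By the centre of the region the sets were close, with 52.7% of members in introns and 39.8% between genes, against 53.0% and 41.2%. The median distance from the centre to the nearest TSS was 36421.5 bp, against 57604 bp in MB002 alone and 24838.5 bp in 4 lines. Of the 142 members in the strongest class of all 3 lines, 65 (45.8%) held a TSS, as did 52 of the 113 SE members of MB002 (46.0%). Among all SEs the share with a TSS was 51.6% in MB002, 56.4% in D425, 64.7% in HDMB03 and 37.6% in UW228. Strong members thus often included a promoter.

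Genes were assigned to a member when it touched the gene body, when the TSS lay within 50 kb, or when the TSS was the closest one. In this way 6067 of 23008 genes on chromosomes 1 to 22 (26.4%) received a member. UW228 regions were assigned to 64.5% of genes by the same rule, and to 4180 of the 6067 genes with a member (68.9%). The remaining 1887 (31.1%) had no UW228 region, a share close to the 27.7% over all genes with an MB002 region. Most genes with a member therefore also had a UW228 region. With only the closest gene counted, 3181 genes (13.8%) had a member.

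The lists differed both in the share with a member and in the share with a UW228 region, as the plot of lists shows. A member was assigned to 24 of 43 photoreceptor genes (55.8%), 14 of 31 proneural and neuroendocrine factors (45.2%), 22 of 47 transmitter receptor and synapse genes (46.8%) and 29 of 51 axon guidance genes (56.9%). Of the same lists, 62.8%, 51.6%, 42.6% and 84.3% had a UW228 region. Over all genes, 26.4% had a member and 64.5% had a UW228 region. YAP, AP-1 and mesenchymal genes had a member in 13 of 39 cases (33.3%) and a UW228 region in 94.9%. Hedgehog genes had a member in 5 of 18 cases (27.8%) and a UW228 region in 83.3%. With only the closest gene counted, the share with a member was 11.1% for Hedgehog genes, below the 13.8% of all genes, and 20.5% for YAP, AP-1 and mesenchymal genes. Shares over long genes with many regions are raised by gene length under this rule, and what part length had in the order of the lists was not tested.

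Photoreceptor genes were led by IMPG2, CRX, RBP3 and NRL. The IMPG2 member, over the TSS of this proteoglycan gene of the matrix around photoreceptors, ranked 402 in MB002, 960 in D425 and 186 in HDMB03, where it was an SE. CRX, the cone-rod homeobox factor, had a member of 78.1 kb that ranked 84 in MB002, 89 in D425 and 1425 in HDMB03. It was an SE in MB002 and D425, and its best HDMB03 region was 24.2 kb wide. RBP3, which carries retinoids between photoreceptors and the pigment epithelium, ranked 2616, 432 and 1006. NRL, the leucine zipper factor of rods, ranked 2973, 747 and 696. The last 3 genes had no UW228 region, and in total 8 of the 24 genes with a member had none, near the 31.1% over all genes with a member.

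Further photoreceptor genes with a member were the cone phosphodiesterase PDE6C, the transducin subunits GNGT1, GNB1, GNB3 and GNAT2, the guanylate cyclase GUCY2D, peripherin (PRPH2), arrestin (SAG) and the rod factor NR2E3. The transducin GNAT1, recoverin (RCVRN), the rod phosphodiesterase subunits PDE6A, PDE6B and PDE6G and the cyclic nucleotide channels had none. Members were thus spread over several steps of phototransduction but did not cover all of them.

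Among retinal and eye-field factors, 11 of 30 (36.7%) had a member, against 26.4% of all genes. The same number had a UW228 region, against 64.5% of all genes. After OTX2, CRX and NRL the strongest was RORA, a nuclear receptor gene with 6 members, of which the best ranked 134 in MB002, 2396 in D425 and 2692 in HDMB03. SIX3, TBX2 and POU4F1 had a member and no UW228 region, whereas PAX6, RAX and SIX6 had no member.

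Rhombic lip and cerebellar regulators had a member in 8 of 31 cases (25.8%), near the share over all genes. LMX1A, a LIM homeobox factor of the rhombic lip, ranked 505 in MB002, 1817 in D425 and 1071 in HDMB03. Its best HDMB03 region was a single peak of 1.93 kb with a signal per base pair of 5.76, inside an MB002 region of 42.5 kb at 0.635, and over all HDMB03 regions that overlap this member the value was 1.86. TBR1, a T-box factor of glutamatergic neurons, ranked 3611, 710 and 72, and was an SE in HDMB03 only. One member lay over the divergent pair ZIC4 and ZIC1, zinc-finger factors of cerebellar development, and ranked 2533, 2948 and 1985. ATOH1, BARHL1, EOMES, EN1 and EN2 had no member.

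The proneural list held several strong members. Besides NEUROD1, NEUROG1 ranked 684 in MB002, 843 in D425 and 208 in HDMB03, with nearly equal signal per base pair in the 3 lines (1.18, 1.21 and 1.25). NHLH1, a factor of newborn neurons, ranked 289, 1668 and 444, was an SE in MB002 and had no UW228 region. ID3, which blocks proneural factors, shared with E2F2 a member that ranked 2672, 101 and 1117. That member lay over the TSS of E2F2 and reached ID3 only through the window of 50 kb. ID1, ID2 and ID4 and the HES factors HES1, HES5 and HES6 also had members, whereas INSM1, NEUROG2 and NEUROD2 had none. Both activators and inhibitors of this family were thus represented by this assignment. With only the closest gene counted, 8 of the 31 genes had a member (25.8%, against 13.8% of all genes).

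Of 16 genes in the list named Group 3 driver genes, 7 had a member (43.8%, against 26.4% of all genes). With only the closest gene counted the share was 18.8%, against 13.8%. The name is only that of the list, and whether each gene drives Group 3 tumors was not tested. After OTX2 these were ACVR2A, an activin receptor (3260, 2936 and 1193 in MB002, D425 and HDMB03), KBTBD4, an adaptor of ubiquitin ligation (1524, 3959 and 2434), PVT1, SMARCA4, GFI1B and SNCAIP. The SNCAIP member was weak, at a mean rank percentile of 75.6. The ACVR2A member lay between genes, 153594 bp from the TSS of ACVR2A, and was assigned to it only as the closest TSS. The KBTBD4 member lay closest to C1QTNF4 and reached KBTBD4 only through the window of 50 kb. MYC, MYCN, GFI1, CDK6 and TERT had no member. The vital SE-associated signature is a list the study drew in part from the SEs of these lines, so its count, 11 of the 13 genes used here (84.6%), is no independent evidence. Beside OTX2, CRX and KIF21B it was led by AUTS2, whose best member ranked 389, 1633 and 432, and MYC and BMF were the genes without a member.

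TGF-beta and activin genes had a member in 15 of 35 cases (42.9%) and a UW228 region in 82.9%. Over all genes these shares were 26.4% and 64.5%. Of the 15 genes with a member, 3 had no UW228 region, against 31.1% over all genes with a member. INHA, the inhibin alpha chain, was assigned 4 members, among them the ASIC4 one, and had no UW228 region. SMAD2, which carries the activin signal, ranked 3487 in MB002, 3800 in D425 and 1055 in HDMB03. That member lay 116732 bp from the TSS of SMAD2 and was assigned to it only as the closest TSS. FSTL3, which binds activin, ranked 10615, 605 and 2087. The region was 20.8 kb wide in D425, against 1.8 kb in MB002 and 1.55 kb in HDMB03. Its signal per base pair was 0.754 in MB002, 1.04 in D425 and 3.83 in HDMB03.

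At Hedgehog genes, a pair of members were SEs in HDMB03 only. GLI1, the transcription factor at the end of the pathway, shared with INHBE a member that ranked 2042 in MB002, 437 in D425 and 203 in HDMB03, where it was an SE. The same member was also assigned to MARS1, a gene of the vital SE-associated signature, so its place in this list rests on the assignment. PTCH1, the receptor of the ligand and itself a target of the pathway, ranked 6462 in MB002, 15869 in D425 and 61 in HDMB03, again an SE. The PTCH1 region was 19.5 kb wide in HDMB03, 1.96 kb in MB002 and 0.686 kb in D425. The member assigned to SMO, the signal transducer, ranked 2995, 9330 and 1266, but lay over the TSS of AHCYL2 and reached SMO only through the window of 50 kb. CDON, a coreceptor, ranked 4810, 5012 and 6859. GLI2, GLI3, HHIP and SFRP1 had no member.

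Mesenchymal genes with a member were led by PRRX1, a homeobox gene of mesenchyme, at rank 411 in MB002, 2265 in D425 and 567 in HDMB03. The TGFBI member (175, 1950 and 1770), closest to LECT2, lay 1.79 kb from a UW228 region. TEAD3 and TEAD2, partners of YAP, were assigned members closest to TULP1 (940, 1362 and 4957) and SLC6A16 (2806, 6051 and 1361). The TULP1 member is next to a photoreceptor gene, so the assignment to TEAD3 rests on distance alone. YAP1, TEAD1, JUN, VIM, CD44 and FN1 had no member.

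Axon guidance genes were led by NTN3, a netrin gene that lies within the TBC1D24 member. EFNA5, an ephrin, had 4 members, the best of which ranked 426 in MB002, 1115 in D425 and 86 in HDMB03, and it also had 8 UW228 regions. SEMA3G, a secreted semaphorin without a UW228 region, was assigned a member closest to NISCH (2646, 450 and 933) through the window of 50 kb. PLXNA4 (570, 592 and 2515) is a semaphorin receptor. Of the 29 genes of this family with a member, 3 had no UW228 region, against 31.1% over all genes with a member.

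Transmitter receptor and synapse genes had a member more often than a UW228 region, 22 against 20 of 47. GABRB1, a GABA-A receptor subunit, ranked 1079 in MB002, 2078 in D425 and 1218 in HDMB03. GABBR2, a GABA-B receptor subunit, ranked 2302, 2131 and 3395. DLG4, which encodes the scaffold PSD-95, ranked 7694, 2276 and 382, and GRIN1, the NMDA receptor subunit, 5780, 1250 and 2608. Of the 22 genes with a member, 11 had no UW228 region, among them GABRB1, GRIN1, GRM4 and GRIK3, against 31.1% over all genes with a member.

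Of 23 G1 cell cycle genes, 9 had a member (39.1%, against 26.4% of all genes). With only the closest gene counted, the share was 21.7%, against 13.8%. CDK4, the kinase of G1, ranked 710 in MB002, 7512 in D425 and 481 in HDMB03 through a member over its TSS and had no UW228 region. CCND3, a D cyclin, ranked 4228, 12979 and 709, and E2F3 ranked 8374, 5324 and 6884. The E2F3 member lay 87954 bp from the TSS of E2F3 and was assigned to it only as the closest TSS. CDK6, CCND1 and CCND2 had no member. Markers of glial, immune and endothelial cells had the lowest share of the lists, 5 of 22 (22.7%), with FLT1, CDH5, MOG, PECAM1 and CSPG4. With only the closest gene counted, their share was 18.2%, above the 13.8% of all genes. Hedgehog genes then had the lowest share, 11.1%. FLT1, a VEGF receptor, had 3 members in its gene and the best ranked 893, 2544 and 2157. The astrocyte genes GFAP and AQP4, the oligodendrocyte factors OLIG2 and SOX10 and the immune genes PTPRC and CD68 had none.

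Most genes with members had a single one. Of 18256 protein-coding genes, 3637 had 1 member by gene body or a TSS within 50 kb, 963 had several, and 30 had 5 or more. MIDEAS, a gene of a histone deacetylase complex, had the most, 8, and its best member ranked 8509 in MB002, 6676 in D425 and 80 in HDMB03. In a cluster on chromosome 1, P3H1, C1orf50, TMEM269, SVBP and ERMAP had 7 members each, with the same best member. SGCD, a sarcoglycan gene of 1040.0 kb, also had 7. CORO2B, next to ANP32A, CASZ1 and SEMA6D had 6 each. All 6 MB002 regions of CORO2B were members, as were 6 of the 7 of CASZ1. CORO2B also had 3 UW228 regions, whereas CASZ1 had none. MIDEAS and SGCD had 23 MB002 regions each, with 4 UW228 regions at MIDEAS and 5 at SGCD.

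Motif letters were counted in a window of 300 bp at the centre of the part shared by the 3 G3-MB lines. This was possible in 3773 members, and the shared part had a median of 919 bp. Regions of 4 lines were treated alike (1910 windows), and for regions in MB002 only, in UW228 only and all of MB002 the window lay at the centre of the region. Base composition differed, with a median GC of 48.0% in members, 49.0% in regions of 4 lines, 43.7% in MB002 only and 40% in UW228 only. Shares carry 95% Wilson intervals, which cover counting error over regions of single libraries. Each motif was searched as written and as its reverse complement, and a match is a description of letters and not of a bound site.

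The proneural E-box CAGATG lay in 27.9% of member windows (95% interval 26.5 to 29.4). It lay in 21.4% of windows in 4 lines, 21.6% in MB002 only, 18.7% in UW228 only and 22.3% of all MB002 windows. Members kept the higher share within windows of 40 to 50% GC, at 31.0% against 23.8% of all MB002 windows and 21.7% in UW228 only, and also below 40% GC (26.5%, 19.8% and 16.1%) and at 50 to 60% GC (30.8%, 24.5% and 19.6%). From 60% GC upward the sets were close, at 16.9%, 17.1% and 16.0%. The share also changed with the position of the window. With the window at the centre of the MB002 region the share of members was 24.6%, and among 393 single-peak members it was 22.1%, next to 21.8% in single-peak regions of MB002 only and 18.8% in those of UW228 only. These sets differ in base composition, with a median GC of 53.7% in single-peak members and 45.3% in single-peak regions of MB002 only, and single peaks were not compared within GC classes.

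The AP-1 motif TGANTCA, the same on both strands, was the one with the widest difference from UW228. It lay in 8.38% of member windows (7.53 to 9.30) and in 19.4% of windows of UW228 only (18.7 to 20.1). Regions of MB002 only were near members, at 9.53%, and regions of 4 lines lay between, at 13.6%. The gap held within windows of 40 to 50% GC (9.76% against 20.7%) and in single-peak regions (8.40% against 21.3%).

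The OTX2/CRX letters TAATCC did not distinguish members from other MB002 regions. They lay in 22.2% of member windows (20.9 to 23.6), 23.8% in MB002 only, 20.3% in 4 lines and 17.1% in UW228 only. Part of these matches falls in GTAATCCCA, letters that are frequent in Alu repeats and were present in 6.28% of member windows. Without such matches the shares were 17.3% in members, 18.1% in MB002 only, 15.8% in 4 lines and 11.8% in UW228 only. The difference from UW228 only was present below 40% GC (22.6% in members against 13.5%) and at 40 to 50% GC (26.9% against 19.3%), but not at 50 to 60% GC (24.8% against 26.1%). TAATCC and CAGATG occurred together in 249 member windows (6.60%), against 4.90% of all MB002 windows and 2.88% in UW228 only.

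For several other motifs the difference between members and UW228 only varied with base composition. The letters ACAATG, bound by SOX factors, lay in 11.1% of member windows and 18.5% in UW228 only, and TAATTA, a homeobox core, in 6.49% and 12.1%. The MYC E-box CACGTG was at 4.82% and 2.69% and the CTCF letters CCACNAGG at 5.27% and 3.04%. Within windows of 40 to 50% GC, ACAATG was at 13.8% in members and 16.3% in UW228 only, TAATTA at 7.84% and 7.75%, CACGTG at 3.42% and 3.18% and CCACNAGG at 3.64% and 4.05%. The TEAD letters GGAATG were at 15.2% and 18.1% over all windows and at 16.6% and 19.8% in that class. Below 40% GC, ACAATG was at 17.7% and 22.8%, TAATTA at 14.5% and 18.3% and CCACNAGG at 3.13% and 1.40%. Over all windows, differences were small for the NRL/MAF letters TGCTGA, at 21.7% and 20.8%, for AGGTCA of nuclear receptors, at 18.0% and 18.1%, for the RUNX letters TGTGGT, at 19.1% and 21.3%, and for GTTGCCA of RFX factors, at 3.98% and 3.42%. From 60% GC upward TGCTGA was at 15.1% in members and 24.4% in UW228 only, and AGGTCA at 11.1% and 19.1%, with 131 windows in UW228 only. At 50 to 60% GC, AGGTCA was at 23.2% and 31.3%. The paired-like homeobox dimer lay in 1.03% and 1.35% and the full NFI site in 3 member windows. TGCTGA can share letters with the AP-1 motif, and TAATTA with the dimer.

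The 3 motifs marked in the sequences above showed no steady change with strength. In 4 classes of members by mean rank percentile, from strong to weak, CAGATG lay in 29.0%, 28.4%, 29.7% and 24.6% of windows, and AP-1 in 9.22%, 6.57%, 8.48% and 9.23%. TAATCC lay in 22.4%, 25.5%, 22.5% and 18.7%. The weakest class was the lowest for CAGATG and TAATCC. The homeobox core TAATTA was more frequent in strong members, at 8.69%, 6.79%, 5.09% and 5.41%.

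Each value above comes from 1 library per line, of unknown depth. The table of UW228 was made at a later date and under another settings name than those of the 3 G3-MB lines, so that a difference in processing or in subtype cannot be told apart. Stitched regions include the gaps between their peaks, and a region called in one line and missed in another may differ little in signal.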

How the data were processed

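H3K27ac ChIP-seq and input were measured in MB002, D425, HDMB03 and UW228, with 1 library of each kind per line. By the authors, reads were aligned to GRCh38 with Bowtie 2 (2.3.0 in the submitters' processing notes, which also name SAMtools 1.9), peaks were called over input with MACS2 (2.2.6), peaks flanking promoters were left out, and the others were stitched and ranked with ROSE. The stitching distance is 12 kb in the file headers and slightly larger in the methods of the study. The deposited regions still hold some promoters, since a TSS lay in 288 single-peak regions of MB002 (2.37%) and 422 of HDMB03 (4.52%). The deposited signal of each region is its RPM per base pair multiplied by its length, with input in a column of its own. The deposited score is the rank in the line, where 1 is the highest. Other deposited columns give the number of stitched peaks, their summed size and the SE call. How deeply each library was sequenced is unknown, and counting error is therefore not given.

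Here input was subtracted from the signal and negative values were set to 0, and sorting by the result gave the deposited ranks of each line. Where several regions of a line overlapped a member, the best rank was taken. Signal, input and length were summed over these regions for medians over members, for comparisons of lines over all members and for input density, whereas the signal per base pair given or plotted for a named member is that of the best-ranked region. Relative input density is input per base pair over the median of the line, and 5 or more was called high. The gene set was the 24049 protein-coding and lncRNA genes, of 26159 curated in RefSeq, for which GENCODE 44 gave a strand. Some genes and sequences are not reported here. Python 3.11.15, numpy 2.4.6, pandas 2.3.3, scipy 1.17.1, pysam 0.24.0 and matplotlib 3.10.9 were used, and the overlap, gene assignment, cutoff and motif search were tested on simulated data. Motifs were searched on both strands by exact letters. The members, gene lists and motifs were chosen with earlier results of these data known.

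Named were the closest genes of the 15 members with the lowest mean rank percentile, the members that were SEs in all 3 G3-MB lines, the 4 best genes of each list, the 10 genes with the most members, the 3 members with the largest excess in each line, and the members whose sequence is shown. Sequences passed over chromosome 8 and windows that overlap an exon. Other genes named from the lists, to show which had a member and which had none, and the windows at OTX2, CRX and NRL, were chosen after their values were seen.

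The alternatives were other tables, overlaps, distances, strengths and chromosomes for the rule, ranks by signal per base pair, no input subtraction, division by relative input density, a recomputed SE cutoff, other gene assignments, protein-coding genes only, and other windows. Added after seeing the data were OTX2/CRX matches outside GTAATCCCA, windows with no TSS within 2 kb, single-peak members for the TSS share, and members of high input left out of percentiles, signal, input density and gene counts. RNA-seq was not analysed here.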

Additional observations from a re-analysis of the deposited data

How the results depend on the processing

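No paired analysis was possible because each line had 1 library and no test was run between lines. Across all results, 117 alternative values were computed, of which 75 stayed close to the reported value and 42 did not. Close means within 1.5-fold for counts, percentiles and densities, and within the 95% interval of the reported value for shares. The number of members, 3965, fell to 1501 when at least 50% of the MB002 region had to be covered by each of the other G3-MB lines, and to 1768 with only the stronger 50% of the regions of these lines. Under the other 8 rules it lay between 3231 (no UW228 region within 10 kb) and 4676 (only the stronger 50% of UW228 regions counted as present). Median rank percentiles, signal per base pair, SE counts and input density stayed close under every alternative run; ranked by signal per base pair, the median percentiles were 33.0 in MB002, 31.3 in D425 and 41.4 in HDMB03. Genes with a member fell from 6067 to 3181 with the closest gene only and to 3924 with gene body or closest gene. With the closest gene only, the share with a member was 37.2% for photoreceptor genes, 25.8% for proneural factors, 18.8% for Group 3 driver genes, 20.5% for YAP, AP-1 and mesenchymal genes, 11.1% for Hedgehog genes, 41.2% for axon guidance genes and 21.7% for G1 genes, beside 13.8% of all genes. The share of members with a TSS was 7.67% with protein-coding genes only and, chosen after seeing the data, 5.38% in single-peak members. Of 61 alternative motif shares, 29 left the interval of the reported share, among them all 15 in windows of 200 bp, which were lower in the shorter window. In those windows the OTX2/CRX letters were at 15.1%, CAGATG at 19.1% and AP-1 at 5.91%. At the centre of the MB002 region CAGATG was at 24.6%, and in single-peak members CAGATG was at 22.1% and the OTX2/CRX letters at 17.3%, as they were outside GTAATCCCA (17.3%). Why the shares differ between window positions was not tested.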
